A study of Arabidopsis thaliana with 8 samples.

Results

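The mitochondria-encoded genes of Arabidopsis thaliana were followed in rosette leaves of 2 genotypes after heat stress. They were taken as all rows of the deposited expression table whose locus identifier begins with ATMG, the prefix of the mitochondrial genome, and whose value was above 0 in at least 2 of the 8 libraries. This rule gave 81 genes of 152 mitochondrial rows, in a table of 34354 rows. Of the other 71 mitochondrial rows, 57 held no read in any library and 14 held reads in 1 library. The rule used whether a row was above 0 and not how its level differed between groups.

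The plants carried the pif4-2 and pif5-3 alleles together (pif4 pif5) or were the Col-0 wild type. PIF4 and PIF5 are basic helix-loop-helix transcription factors of light and temperature signalling. All plants were grown on soil at 22 °C for 3 weeks. Heat plants were held at 42 °C for 5 h and recovered for 3 days, mock plants were not heated, and the third and the fourth rosette leaves were collected. The design text of the series says that the leaves had started to yellow at the edge, without naming the groups, and the age of mock leaves at harvest is not given. The 4 groups, pif4 pif5 heat, pif4 pif5 mock, wild-type heat and wild-type mock, held 2 libraries each, which the design text calls biological replicates. How many plants went into a library is not given.

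The deposited values are FPKM, which scale the reads of a row by its length and by the reads of its library. Depth, recovered from the steps of the FPKM values, was 16852240 to 29535916 reads per library, so that 1 read in a row of 1 kb was worth 0.0339 to 0.0593 FPKM. PIF4 was at 23.8 to 25.6 FPKM in pif4 pif5 heat and 33.5 to 33.6 FPKM in pif4 pif5 mock, against 97.2 to 100.8 FPKM in wild-type heat and 131.4 to 131.5 FPKM in wild-type mock. PIF5 was at 3.98 to 5.60 FPKM in the 4 pif4 pif5 libraries, against 54.3 to 66.4 FPKM in the 4 wild-type libraries. The listed leaf mesophyll markers, Rubisco and light-harvesting genes among them, were measured in all 8 libraries (4 of 4) and summed to between 35790 and 44130 FPKM.

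Plant mitochondria keep a small set of genes of their bacterial ancestor: subunits of respiratory complexes I, III and IV and of the ATP synthase, factors that attach haem to cytochrome c, some ribosomal proteins, and ribosomal and transfer RNAs. The other subunits of the same complexes are encoded in the nucleus, made in the cytosol and imported. Mitochondrial transcripts are spliced and edited by nuclear-encoded proteins, and as a rule they lack the stable poly(A) tails of nuclear messenger RNA, so that the way RNA is selected for a library affects how many of their reads are counted. That step is not given in the sources used here.

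Of the 81 members, 28 could be named, from RefSeq notes that cite the locus or from a row length equal to that of the annotated mitochondrial gene or of a part of its coding sequence. The other 53 are given by locus identifier only. Levels were low. Averaged over the 8 libraries, 6 members were at 10 FPKM or more, 20 were between 1 and 10 FPKM and 55 were below 1 FPKM, with a median of 0.491 FPKM. The highest was ATMG00020, a row of 2568 bp, at 26.9 FPKM. The named member with the highest level was rrn18, the 18S ribosomal RNA of the small mitochondrial ribosomal subunit, at 16.9 FPKM. These 2 rows took 41.5% and 19.8% of the 28857 reads in mitochondrial rows. For scale, 35.0% of the 16831 rows tested in the whole table averaged more than rrn18 and 86.0% averaged more than cox1, the gene of the catalytic subunit of cytochrome c oxidase, at 2.26 FPKM.

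Several protein-coding genes of the mitochondrial genome were at or near 0 in all groups. The rows of cob, rpl5, rps7, ccmC and ATMG00410, noted in RefSeq as ATPase subunit 6-1, held 0 reads in every library, and nad3 and nad6 held 1 read each. A count of 0 allows up to 3 reads in a library, or 0.102 to 0.178 RPM (reads scaled to the depth of the library) at these depths, counting error only. These levels were compared with the sequence of the genes, since the nuclear chromosome 2 of Col-0 carries a large insertion of mitochondrial DNA. In TAIR10.1, 70.6% of all 50-base windows of the mitochondrial genome (367808 bp) had an exact copy in a nuclear chromosome, 99.7% of them on chromosome 2.

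The first 90 bases of the coding sequence of 3 genes are printed to show both cases, from the TAIR10.1 mitochondrial genome, in the direction of the gene. The first pair, nad4L (MT:361637-361726, plus strand) and atp4 (MT:362206-362295, plus strand), had no exact nuclear match. The third, cob (MT:182769-182858, minus strand), matched chromosome 2 exactly (2:3450863-3450952, plus strand).
nad4L: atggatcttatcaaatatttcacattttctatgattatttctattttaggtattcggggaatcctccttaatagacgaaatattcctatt
atp4: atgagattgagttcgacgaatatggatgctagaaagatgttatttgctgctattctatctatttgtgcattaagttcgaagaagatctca
cob: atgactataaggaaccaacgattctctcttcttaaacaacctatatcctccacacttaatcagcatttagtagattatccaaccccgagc
A read of up to this length from such a stretch of cob fits both genomes equally well.

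Over the 33 named rows with an annotated span, levels fell into 2 ranges by this measure. The 11 rows with fewer than 50% of their 50-base windows copied, in fact at most 34.6%, averaged 0.358 to 16.9 FPKM, and 10 of the 11 were at 1 FPKM or more. They include nad4L, nad9, atp4, cox1 and ccmB, each with no copied window. The 22 rows with at least 75.2% copied averaged 0 to 1.02 FPKM, and 1 of them, the nad1 row ATMG00516, was at 1 FPKM or more. The split at 50% was set after the values were seen and the relation is a description without a test. How reads that fit several places were counted is not given, and its part in these levels was not tested.

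**Figure D1:**
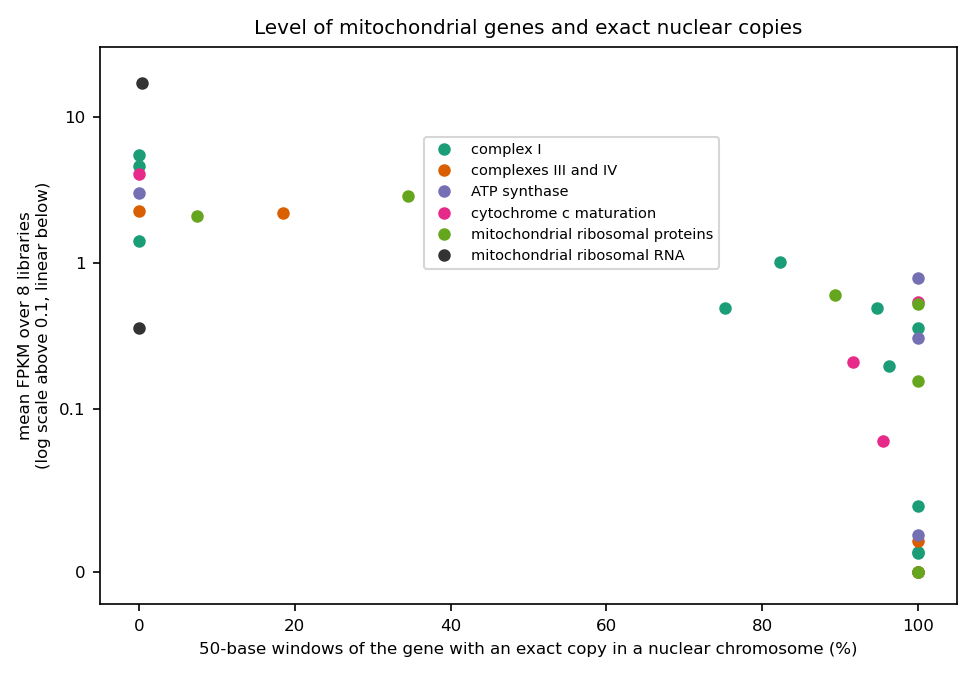
Mean FPKM over the 8 libraries (y axis, logarithmic above 0.1 and linear below) of 33 named mitochondrial rows against the percentage of 50-base windows of the gene with an exact nuclear copy (x axis), coloured by the role of the product. The 11 rows at 34.6% or less lie between 0.358 and 16.9 FPKM and the 22 rows at 75.2% or more lie between 0 and 1.02 FPKM; several points at 100% overlap.

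The nuclear copies have rows of their own. AT2G07698, which RefSeq pairs with atp1, held 341 reads over the 8 libraries against 6 in the mitochondrial row. AT2G07727, paired with cob, held 43 reads against 0, and AT2G07715, paired with rpl2, held 516 reads against 112. Other pairs went the other way. AT2G07815, paired with ccmFC, held 1 read against 134 in the mitochondrial row. AT2G07707, paired with atp8, held 0 against 66, and AT2G07675, paired with rps12, held 3 against 35. The longest exon of rpl2, the only one compared, differed from its nuclear copy at 3 of 917 positions. In the window printed here, MT:222047-222136 on the minus strand against 2:3411654-3411743 on the plus strand, the capitals mark both differences, C46T and C47T, counted from 1 at the left end with the mitochondrial base first.
rpl2, mitochondrial: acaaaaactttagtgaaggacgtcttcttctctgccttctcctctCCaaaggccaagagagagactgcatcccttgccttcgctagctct
rpl2, nuclear copy: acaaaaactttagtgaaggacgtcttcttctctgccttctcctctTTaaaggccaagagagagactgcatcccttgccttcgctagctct
A mitochondrial row near 0 says only that few reads were assigned to it.

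Summed over mitochondrial rows, wild-type leaves after heat stood apart from the other 3 groups. In the mutant the sums were 140.9 and 147.9 RPM in pif4 pif5 heat and 141.4 and 146.9 in pif4 pif5 mock. In the wild type they were 218.3 and 235.2 RPM in wild-type heat and 134.9 and 148.4 in wild-type mock. The 95% Wilson intervals were 212.2 to 224.7 and 228.1 to 242.4 in wild-type heat and 130.5 to 139.6 and 143.7 to 153.2 in wild-type mock, and they cover counting error only. The mean in heat was 1.002 times that in mock in the mutant and 1.60 times that in mock in the wild type. With 2 libraries against 2, an exact two-sided permutation test cannot go below p = 0.333, and it gave p = 1.0 for the mutant and p = 0.333 for the wild type. RPM is a share of the library. More mitochondrial RNA per cell and a changed mix of cells, among other causes, cannot be told apart in whole leaves.

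Most of that difference lay in ATMG00020 and rrn18. Together they gave 149.0 and 164.7 RPM in wild-type heat, against 79.1 and 87.0 in wild-type mock, a ratio of means of 1.89. Without these 2 rows the mitochondrial sum was 69.3 and 70.4 RPM in wild-type heat. It was 55.9 and 61.4 in wild-type mock, a ratio of means of only 1.19. In the mutant it was 58.1 and 57.1 RPM in heat and 62.4 and 65.3 in mock, a ratio of 0.902. The 26 named protein-coding members gave 21.4 and 19.6 RPM in pif4 pif5 heat, against 24.2 and 24.0 in pif4 pif5 mock, a ratio of means of 0.852. In the wild type these genes gave 31.9 and 32.5 RPM in wild-type heat, against 19.5 and 22.0 in wild-type mock, a ratio of 1.55. The rows of the chloroplast genome, the other organelle genome of the cell, had their lowest values in the heated wild type. They gave 316.9 and 309.4 RPM in pif4 pif5 heat, against 311.3 and 304.1 in pif4 pif5 mock, and 251.4 and 234.8 in wild-type heat, against 328.5 and 311.3 in wild-type mock.

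**Figure D2:**
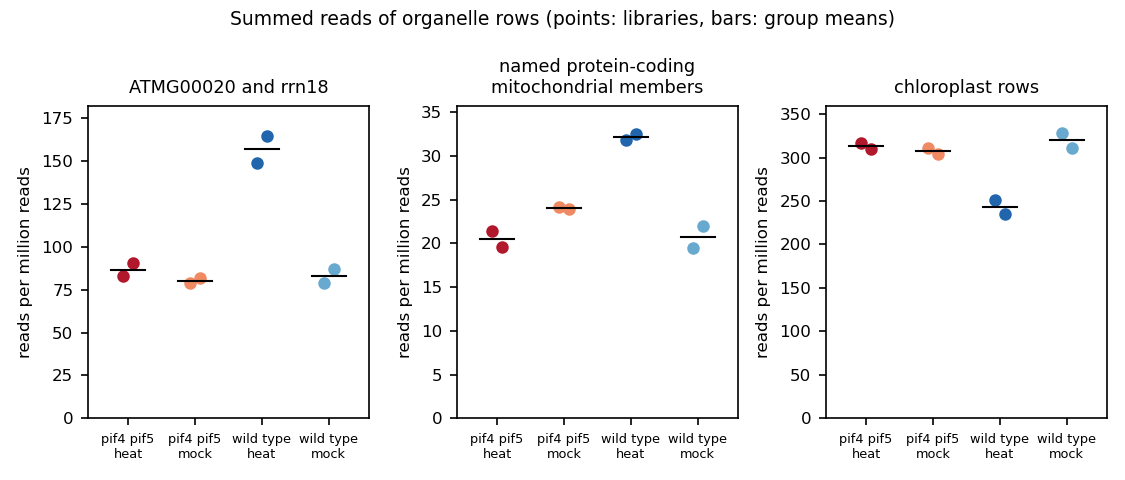
The plots give RPM in each library (y axes, linear from 0) summed over ATMG00020 and rrn18 (left), over the named protein-coding mitochondrial members (middle) and over chloroplast rows (right), by group along the x axes. Points are single libraries and bars are group means; the wild-type heat libraries are the highest of the 8 in the left and middle panels (149.0 and 164.7, then 31.9 and 32.5) and the lowest in the right panel (251.4 and 234.8).

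Changes were tested row by row on log2(FPKM + 1) with limma, over the whole table, and p-values were adjusted by Benjamini-Hochberg over the 16831 rows with 1 FPKM or more in at least 2 libraries. Rows with an adjusted p under 0.05 were called. The added 1 makes the changes smaller than the ratios of FPKM for low rows. Of the 81 members 32 passed this filter, 13 of them named, and 1 of the 32 reached 1 FPKM in libraries of 1 group only. That row was ATMG00150, at 1.33 and 1.13 FPKM in wild-type heat and below 1 FPKM in the other groups. Some other called rows passed only through groups where they were high. ATMG00630, called higher after heat in the wild type, reached 1 FPKM in heat libraries only. ATMG09730, called lower after heat in the mutant, reached it in mock libraries only. ATMG09960 reached it in pif4 pif5 heat and wild-type mock only. The counts below include these calls, and describe the 32 rows tested and not all members. After heat in the mutant 4 were called, 1 higher and 3 lower (median log2 change -0.07), where 20.2% of all rows tested were called, 6.28% higher and 13.9% lower (median -0.06). That count was 1 without pif4 pif5 heat replicate 2 or without pif4 pif5 mock replicate 2. After heat in the wild type 17 were called, 13 higher and 4 lower (median 0.42), where 38.4% of all rows were called, 21.5% higher and 16.9% lower (median 0.02). The count was 10 without wild-type heat replicate 2 and 11 without wild-type mock replicate 1. Among the 13 named rows limma called 9 higher and 0 lower, and 9 had an unadjusted p below 0.05 in either direction.

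Between genotypes in mock, 3 of the 32 were called, 2 higher and 1 lower in the mutant (median 0.13), where 20.7% of all rows were called, 13% higher and 7.69% lower (median 0.06). Leaving out pif4 pif5 mock replicate 2 left 0 calls, and leaving out wild-type heat replicate 1, wild-type heat replicate 2 or wild-type mock replicate 1 left 1. After heat, 17 were called, 6 higher and 11 lower in the mutant than in the wild type (median -0.32), where 28.6% of all rows were called, 11% higher and 17.6% lower (median -0.03). This count was 9 without pif4 pif5 heat replicate 2, 11 without wild-type heat replicate 2, and 10 with limma-voom on the recovered reads. The 11 lower calls include ATMG00150, which passed the filter through wild-type heat only. The difference between the heat changes of the genotypes, the interaction, was called in 14 of the 32, with 3 above 0 and 11 below 0 (median -0.52), where 31.9% of all rows were called, 10.3% above 0 and 21.6% below 0 (median -0.10). A negative interaction means that the change after heat was lower in the mutant than in the wild type. The comparisons share libraries and are not independent of each other. Scaling to the sum of the listed mitochondrial protein-coding rows moved the median of all rows to -0.37 after heat in the wild type and ended the calls of nad9, atp4, rps3 and rpl16 there. This sum includes ATMG00665, a row of 22 bp with few reads. It gave 16.6 of 52.2 FPKM in pif4 pif5 heat replicate 1, from 8 reads. In wild-type heat replicate 2 it gave 7.74 of 60.5 FPKM, from 3 reads. Of the 75 chloroplast rows tested, 10 were called higher and 5 lower after heat in the mutant (median 0.03). After heat in the wild type, 1 was called higher and 27 lower (median -0.35). Of all rows 6.28% were called higher and 13.9% lower in the mutant, and 21.5% higher and 16.9% lower in the wild type. In either direction 15 and 28 of the 75 chloroplast rows were called, near the shares of all rows, 20.2% and 38.4%.

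**Figure D3:**
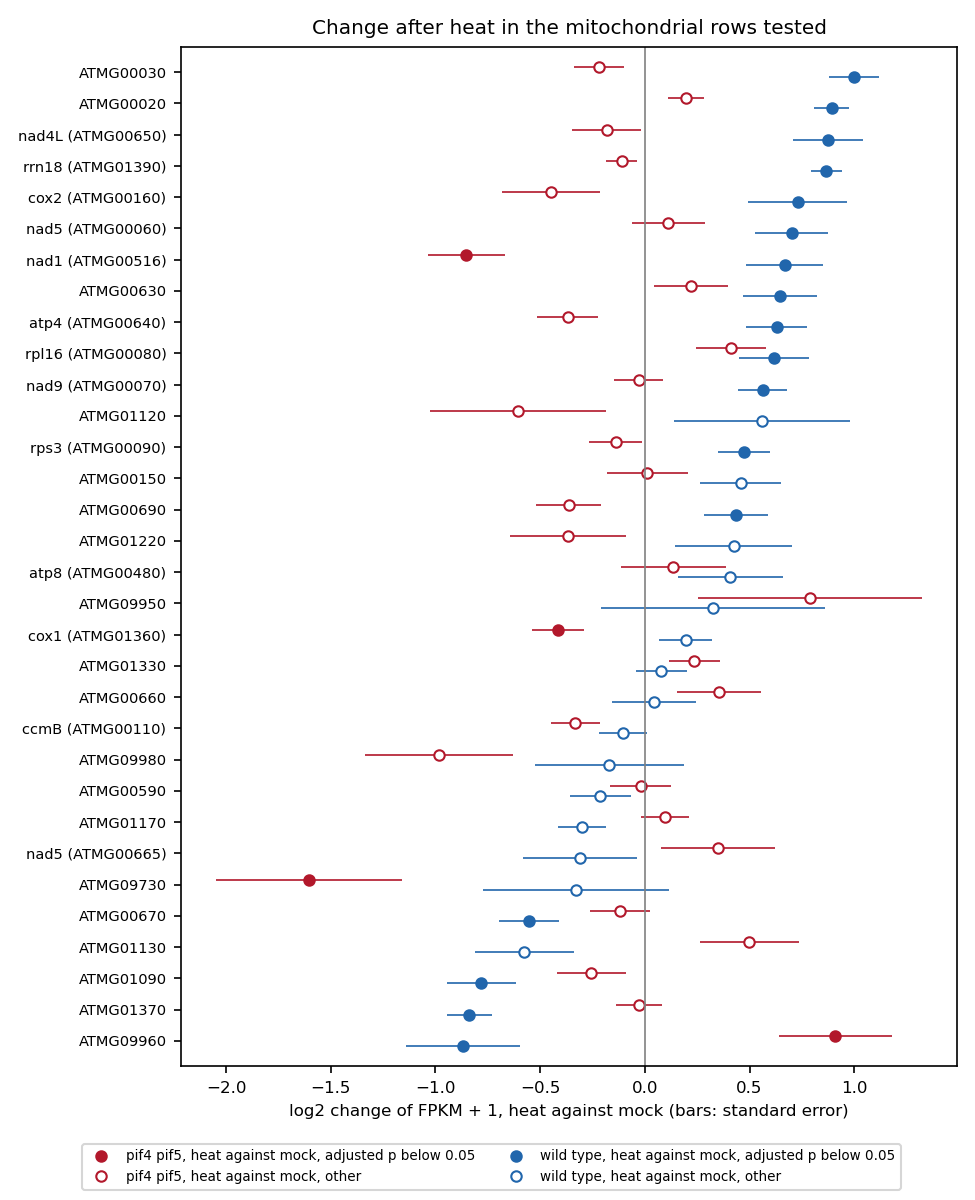
Change after heat against mock on the log2(FPKM + 1) scale (x axis) for the 32 mitochondrial rows tested (y axis, ordered by the wild-type change), in the mutant (upper point of each row) and in the wild type (lower point). Bars are standard errors of the fit and filled points have an adjusted p below 0.05; the 13 wild-type points called higher lie between 0.43 and 1.0, and of the 4 mutant points called 1 is above 0 and 3 are below.

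The ribosomal RNA row of rrn18 held 412 to 1157 reads per library, more than any other named member. The row of rrn18 had 11.1 and 12.6 FPKM in pif4 pif5 heat, 12.4 and 13.4 in pif4 pif5 mock, 28.0 and 28.1 in wild-type heat and 15.0 and 14.9 in wild-type mock. Both heated wild-type libraries lay above all 6 others, which did not reach 16 FPKM. The change after heat was 0.87 ± 0.07 in the wild type (log2 ± SE, limma adjusted p = 2.05e-06), and the mutant was lower than the wild type after heat by a log2 change of -1.17 ± 0.07 (limma adjusted p = 2.23e-07). The interaction was -0.98 ± 0.11 (limma adjusted p = 3.42e-05), and -0.48 and not called when scaled to the mitochondrial sum. In mock the mutant differed by -0.20 ± 0.07, which did not pass the threshold (limma adjusted p = 0.0826) but passed with median-of-ratios scaling, quantile scaling or limma-voom.

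ATMG00020 had 23.8 and 25.8 FPKM in pif4 pif5 heat, 21.4 and 21.7 in pif4 pif5 mock, 36.9 and 43.0 in wild-type heat and 19.5 and 22.7 in wild-type mock. Again the heated wild-type pair was the highest of the 4. The log2 change after heat was 0.20 ± 0.08 in the mutant (limma adjusted p = 0.124), where it passed with median-of-ratios scaling (0.27) or the replicate block (adjusted p = 0.0475). In the wild type it was 0.89 ± 0.08 (limma adjusted p = 4.59e-06). The difference between these changes was -0.70 ± 0.12 (limma adjusted p = 0.00102), and -0.19 and not called when scaled to the mitochondrial sum. The row of rrn5, the 5S ribosomal RNA gene that lies 170 bases from rrn18 on the same strand in the TAIR10.1 mitochondrial genome, is 118 bp long and held 7 reads in all 8 libraries together, so it was not tested.

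**Figure D4:**
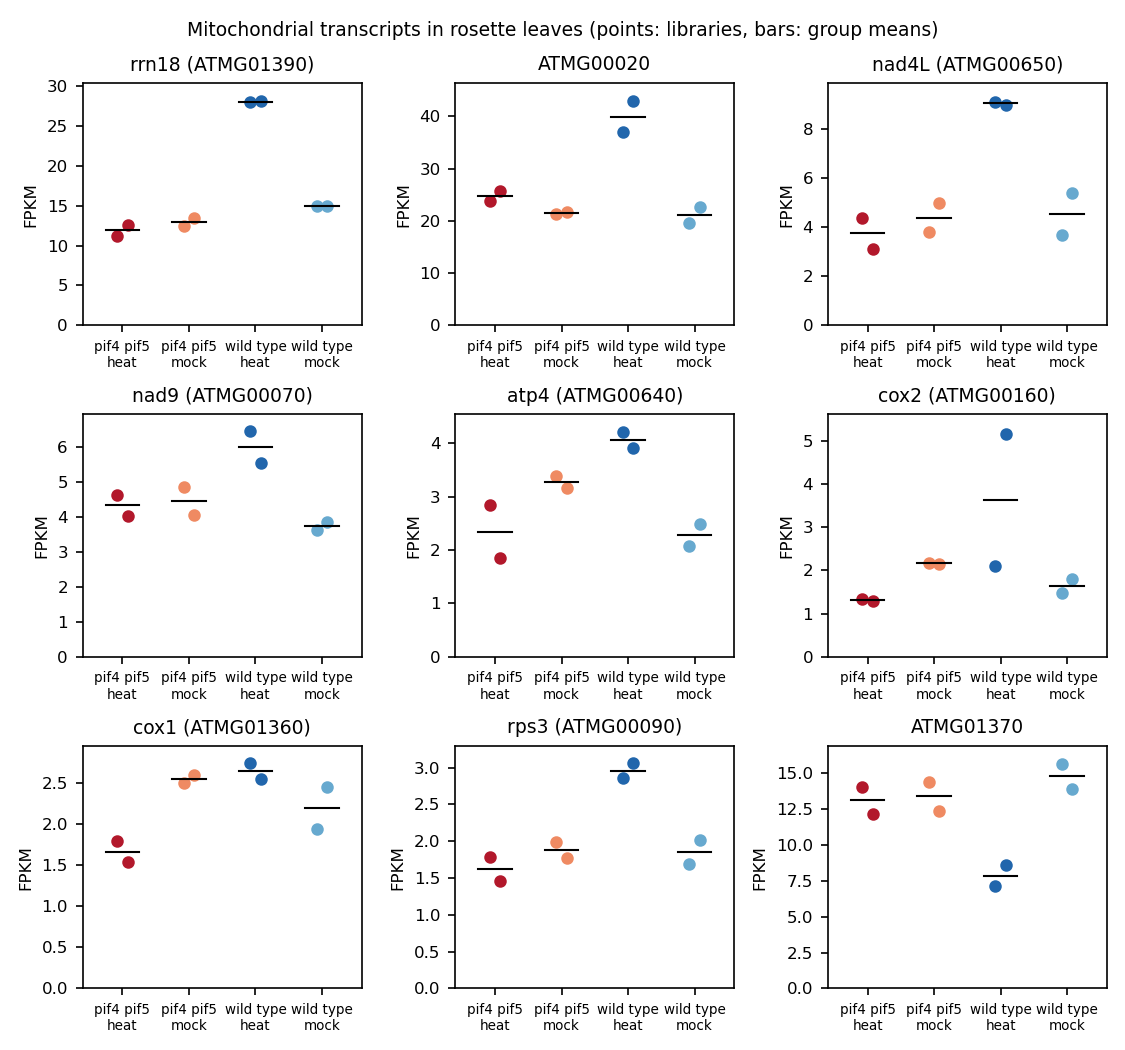
FPKM (y axes, linear from 0) of 9 mitochondrial rows in the 4 groups (x axes), with points for libraries and bars for group means. In the panels of rrn18, ATMG00020, nad4L, nad9, atp4 and rps3 both wild-type heat libraries are above the other 6; in that of ATMG01370 they are the lowest, at 7.11 and 8.61 FPKM.

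Complex I, the NADH dehydrogenase that feeds electrons from NADH into the respiratory chain, has 12 named rows in the mitochondrial lists, since some of its genes are split into rows for separate exons. Of these, 5 were tested, and 0 were called higher and 1 lower after heat in the mutant, and 4 higher and 0 lower after heat in the wild type. Of all rows 20.2% were called in the mutant, near 1 of 5, and 21.5% were called higher in the wild type. The gene nad4L, for a small membrane subunit, had 4.38 and 3.13 FPKM in pif4 pif5 heat, 3.80 and 4.97 in pif4 pif5 mock, 9.12 and 8.99 in wild-type heat and 3.69 and 5.42 in wild-type mock. The heated wild-type libraries did not overlap any other group. The change after heat in the wild type was 0.87 ± 0.17 (limma adjusted p = 0.0012), on 59 and 48 reads in heat against 28 and 41 in mock, and the interaction was -1.06 ± 0.23 (limma adjusted p = 0.00514), and -0.62 and not called when scaled to the mitochondrial sum.

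The gene nad9, for a peripheral-arm subunit, was at 4.63 and 4.04 FPKM in pif4 pif5 heat, 4.85 and 4.06 in pif4 pif5 mock, 6.46 and 5.55 in wild-type heat and 3.62 and 3.84 in wild-type mock. Its change was 0.56 ± 0.12 in the wild type (limma adjusted p = 0.00225), and the interaction of -0.59 ± 0.17 (limma adjusted p = 0.0171) was lost without pif4 pif5 heat replicate 2, pif4 pif5 mock replicate 1, wild-type heat replicate 1 or wild-type mock replicate 1 (-0.56 to -0.49), with quantile scaling or limma-voom, and when scaled to the mitochondrial sum (-0.16). The row ATMG00060, which has the length of a part of the nad5 coding sequence, had 1.52 and 1.42 FPKM in pif4 pif5 heat, 1.31 and 1.26 in pif4 pif5 mock, 2.25 and 1.78 in wild-type heat and 0.516 and 1.26 in wild-type mock. It changed by 0.70 ± 0.17 after heat in the wild type (limma adjusted p = 0.00719), and was no longer called without wild-type heat replicate 1 (0.59) or wild-type mock replicate 1 (0.41).

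The row ATMG00516 of nad1, 318 bp of its coding sequence, was the complex I row that fell after heat in the mutant. It had 0.432 and 0 FPKM in pif4 pif5 heat, 1.17 and 1.15 in pif4 pif5 mock, 1.62 and 2.14 in wild-type heat and 1.0 and 0.629 in wild-type mock. These values stand for 3 and 0 reads in pif4 pif5 heat, 11 and 8 in pif4 pif5 mock, 11 and 12 in wild-type heat and 8 and 5 in wild-type mock. The change after heat in the mutant was -0.85 ± 0.18 (limma adjusted p = 0.00798), not called without pif4 pif5 heat replicate 2 (-0.59), and the interaction was -1.52 ± 0.26 (limma adjusted p = 0.000994). The gene nad7, for another peripheral-arm subunit, did not pass the filter, with 0.309 and 0.301 FPKM in pif4 pif5 heat, 0.257 and 0.462 in pif4 pif5 mock, 0.790 and 1.20 in wild-type heat and 0.404 and 0.236 in wild-type mock.

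One complex I row shows what FPKM of a very short row rests on. ATMG00665 is the small 22-base exon of nad5, which plant mitochondria join to the other exons by trans-splicing. It is printed whole, from the plus strand of the mitochondrial genome at MT:360107-360128 of TAIR10.1.
nad5 exon: gatatgatgattggtttaggta
Its mean of 10.6 FPKM was the fifth highest of the members, but came from 3 to 8 reads per library, and it did not pass the test in any comparison.

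Complexes III and IV, which pass electrons from ubiquinol through cytochrome c to oxygen, were represented among the tested rows by cox1 and cox2. The gene cox1 had 1.79 and 1.54 FPKM in pif4 pif5 heat, 2.50 and 2.59 in pif4 pif5 mock, 2.75 and 2.54 in wild-type heat and 1.94 and 2.45 in wild-type mock. The heated mutant pair was the lowest. The change after heat was -0.41 ± 0.13 in the mutant (limma adjusted p = 0.0369) and 0.19 ± 0.13 in the wild type (limma adjusted p = 0.248; below 0 when scaled to the mitochondrial sum), with an interaction of -0.61 ± 0.18 (limma adjusted p = 0.0209). The interaction was not called without pif4 pif5 heat replicate 2, pif4 pif5 mock replicate 2, wild-type heat replicate 1 or wild-type mock replicate 1 (-0.59 to -0.49), with quantile scaling, or when scaled to the mitochondrial sum (-0.26). The mutant call was lost with median-of-ratios scaling, quantile scaling, no filter on low values, and without any 1 of the 4 mutant libraries.

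The gene cox2, for the subunit that takes electrons from cytochrome c, had 1.34 and 1.29 FPKM in pif4 pif5 heat, 2.16 and 2.16 in pif4 pif5 mock, 2.09 and 5.15 in wild-type heat and 1.48 and 1.79 in wild-type mock. One heated wild-type library was above the other, with 71 reads against 35. The change of 0.73 ± 0.24 after heat in the wild type (limma adjusted p = 0.0277) was 0.24 without wild-type heat replicate 2 and 0.65 without wild-type mock replicate 1, and was called in neither case, nor with quantile scaling, no filter or no trend. Of the other rows of these complexes, cox3 held 5 reads in all and cob, the cytochrome b gene, held none.

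For the ATP synthase, the rotary enzyme that makes ATP from the proton gradient, atp4 was the row with the most reads among 5 named. This gene of a peripheral stalk subunit had 2.85 and 1.85 FPKM in pif4 pif5 heat, 3.39 and 3.15 in pif4 pif5 mock, 4.21 and 3.92 in wild-type heat and 2.07 and 2.49 in wild-type mock. Heated wild-type libraries were again the highest and did not overlap the others. The change was -0.37 ± 0.15 in the mutant (limma adjusted p = 0.0938), or -0.59 and called without pif4 pif5 heat replicate 1, and 0.63 ± 0.15 in the wild type (limma adjusted p = 0.00451), and the interaction was -1.0 ± 0.21 (limma adjusted p = 0.00335), or -0.62 and not called when scaled to the mitochondrial sum. In TAIR10.1 atp4 follows nad4L on the same strand after 266 bases, and whether their reads come from 1 transcript was not tested. Of the other subunit genes, atp8 was at 0.784 FPKM on average and was not called in any comparison, and atp1, for the catalytic-head alpha subunit, held 6 reads in all.

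Cytochrome c maturation was represented among the tested rows by ccmB, a membrane component of the haem delivery system. It had 3.54 and 3.34 FPKM in pif4 pif5 heat, 5.02 and 4.19 in pif4 pif5 mock, 4.15 and 3.56 in wild-type heat and 4.05 and 4.38 in wild-type mock. Its changes after heat were -0.33 ± 0.12 in the mutant (limma adjusted p = 0.0629) and -0.11 ± 0.12 in the wild type (limma adjusted p = 0.513), and neither passed the threshold. Scaled to the summed nuclear FPKM the mutant change passed (-0.37), and scaled to the mitochondrial sum the wild-type change passed (-0.46).

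Of the 7 rows for ribosomal proteins, rps3 and rpl16 were tested and both were called higher after heat in the wild type. Of all rows 21.5% were called higher in that comparison. The gene rps3 had 1.78 and 1.46 FPKM in pif4 pif5 heat, 1.99 and 1.78 in pif4 pif5 mock, 2.86 and 3.06 in wild-type heat and 1.70 and 2.01 in wild-type mock. It changed by 0.47 ± 0.13 in the wild type (limma adjusted p = 0.0104), not called without wild-type heat replicate 2 (0.44) or wild-type mock replicate 1 (0.39). The mutant was lower than the wild type after heat by -0.60 ± 0.13 (limma adjusted p = 0.00367), and the interaction was -0.61 ± 0.18 (limma adjusted p = 0.0207). The interaction was lost without pif4 pif5 heat replicate 2, pif4 pif5 mock replicate 1, wild-type heat replicate 2 or wild-type mock replicate 1 (-0.58 to -0.52), with quantile scaling, or when scaled to the mitochondrial sum (-0.26). The gene rpl16 had 2.80 and 4.40 FPKM in pif4 pif5 heat, 2.45 and 2.37 in pif4 pif5 mock, 4.08 and 3.05 in wild-type heat and 2.14 and 1.78 in wild-type mock. Both heated groups were above their mock groups, by 0.41 ± 0.17 in the mutant (limma adjusted p = 0.105), or 0.66 and called without pif4 pif5 heat replicate 1, and by 0.62 ± 0.17 in the wild type (limma adjusted p = 0.0117), which was not called without wild-type heat replicate 1 (0.45) or wild-type mock replicate 2 (0.53). The annotated spans of rps3 and rpl16 overlap by 134 bases in TAIR10.1, so reads in that stretch could count for either.

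Of the 19 tested rows without a checked name, 4 were called higher and 4 lower after heat in the wild type, near the shares of all rows, 21.5% higher and 16.9% lower. ATMG00030 had 13.8 and 15.9 FPKM in pif4 pif5 heat, 18.6 and 16.4 in pif4 pif5 mock, 25.9 and 29.3 in wild-type heat and 11.5 and 15.3 in wild-type mock. As for rrn18, the heated wild-type pair was the highest, with a change of 1.0 ± 0.12 in the wild type (limma adjusted p = 3.22e-05) and an interaction of -1.22 ± 0.17 (limma adjusted p = 0.000218). ATMG01370 did the opposite, with 14 and 12.2 FPKM in pif4 pif5 heat, 14.4 and 12.4 in pif4 pif5 mock, 7.11 and 8.61 in wild-type heat and 15.7 and 13.9 in wild-type mock. The heated wild-type pair was the lowest of the 4, at 51 reads in each library, and the change was -0.84 ± 0.11 (limma adjusted p = 6.53e-05) with an interaction of 0.81 ± 0.15 (limma adjusted p = 0.00199).

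ATMG01090, which RefSeq notes as an ATP synthase 9 match, was also lower in the heated wild type. It had 3.31 and 2.86 FPKM in pif4 pif5 heat, 4.03 and 3.70 in pif4 pif5 mock, 1.37 and 2.37 in wild-type heat and 4.35 and 3.40 in wild-type mock, and changed by -0.78 ± 0.16 in the wild type (limma adjusted p = 0.00244). ATMG00670 changed by -0.55 ± 0.14 (limma adjusted p = 0.00936), with 3.17 and 2.26 FPKM in wild-type heat against 4.58 and 4.25 FPKM in wild-type mock, not called without wild-type heat replicate 2 (-0.38) or wild-type mock replicate 1 (-0.51). ATMG01130 was higher in the mutant after heat, at 2.28 and 2.96 FPKM in pif4 pif5 heat against 1.46 and 0.354 FPKM in wild-type heat (0.98 ± 0.24, limma adjusted p = 0.00816). It was not called without pif4 pif5 heat replicate 2 (0.85) or wild-type heat replicate 2 (0.55).

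In mock 3 of the 19 rows without a checked name were called between the genotypes. That is 15.8%, below the 20.7% of all rows called in this comparison. ATMG00030 was higher in the mutant by 0.37 ± 0.12 (limma adjusted p = 0.0455) and ATMG00690 by 0.48 ± 0.15 (limma adjusted p = 0.0467), with 2.62 and 3.6 FPKM of ATMG00690 in pif4 pif5 mock against 1.99 and 1.88 in wild-type mock. Each of these calls was lost under 13 of the alternatives tried. ATMG09960, a row of 74 bp, was lower in the mutant by -0.95 ± 0.27 (limma adjusted p = 0.028), on 1 and 0 reads in pif4 pif5 mock against 3 and 2 reads in wild-type mock. That call was lost under 6 alternatives, among them limma-voom, no filter, and leaving out pif4 pif5 mock replicate 2 (-0.68) or wild-type mock replicate 1 (-0.79). The 2 other calls of the mutant after heat, ATMG09730 (-1.60 ± 0.44, limma adjusted p = 0.0254) and ATMG09960 (0.91 ± 0.27, limma adjusted p = 0.0347), rest on rows of 80 and 74 bp with at most 7 and 3 reads in a library, and both were lost with limma-voom on the recovered reads.

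Nuclear genes of the same complexes were examined as listed sets. After heat in the mutant, limma called 1 of the 20 genes for complexes II, III, IV and cytochrome c higher and 0 lower, where 6 had an unadjusted p below 0.05, and it called 0 of the 9 ATP synthase genes, where 2 did. Of all rows 6.28% were called higher and 13.9% lower in that comparison, so that 1 of 20 is near the share of higher calls. After heat in the wild type, 8 of the 20 genes for complexes II, III, IV and cytochrome c were called higher and 0 lower (median 0.14), and 5 of the 9 ATP synthase genes higher and 0 lower (median 0.18), where 21.5% of all rows were higher. ATPB-1, ATPB-2 and ATPB-3 of the ATP synthase list are near-identical copies, among which reads could be split. For nuclear complex I 2 of 15 were called higher and 1 lower (median 0.04), where 16.9% of all rows were lower. SDH1-1, the flavoprotein subunit gene of complex II, had 25.9 and 27.3 FPKM in pif4 pif5 heat, 25.6 and 28.7 in pif4 pif5 mock, 51.7 and 52.6 in wild-type heat and 24.0 and 25.9 in wild-type mock. The heated wild type was again the one group that stood apart (1.04 ± 0.07, limma adjusted p = 1.43e-07, and an interaction of -1.06 ± 0.09, limma adjusted p = 6.33e-06). The cytochrome c gene CYTC-2 changed by 0.63 ± 0.08 in the wild type (limma adjusted p = 5.51e-05), with an interaction of -0.70 ± 0.11 (limma adjusted p = 0.000605).

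Alternative respiration and the mitochondrial retrograde response, by which disturbed mitochondria signal to the nucleus, were followed through 9 and 11 tested genes. Of the 9 alternative respiration genes, 1 was called higher and 1 lower after heat in the mutant (median -0.13), and 3 higher and 2 lower after heat in the wild type (median -0.05), beside the shares of all rows given for the retrograde genes. AOX1D, an alternative oxidase gene whose product passes electrons from ubiquinol straight to oxygen, had 1.25 and 1.04 FPKM in pif4 pif5 heat, 1.87 and 1.98 in pif4 pif5 mock, 11.4 and 10.7 in wild-type heat and 0.446 and 0.419 in wild-type mock. After heat it fell in the mutant by 0.45 on the log2 scale (limma adjusted p = 0.0195) and rose in the wild type by 3.07 ± 0.12 (limma adjusted p = 1.36e-09). Of the 11 retrograde genes tested, 3 were called higher and 0 lower after heat in the mutant (median 0.055), where 6.28% of all rows were higher and 13.9% lower, and 9 higher and 2 lower in the wild type (median 0.45), where 21.5% were higher and 16.9% lower. DIC2, a mitochondrial dicarboxylate carrier gene, rose after heat in the mutant by 0.87 ± 0.08 (limma adjusted p = 4.48e-05) and fell in the wild type by 1.19 on the log2 scale (limma adjusted p = 1.65e-07). It had 75.4 and 67 FPKM in pif4 pif5 heat against 38.9 and 38.0 in pif4 pif5 mock, and 9.90 and 8.81 in wild-type heat against 21.4 and 23.9 in wild-type mock.

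Nuclear genes that make and process mitochondrial RNA were called lower or not called in both genotypes. Of 22 tested, 0 were called higher and 12 lower after heat in the mutant (median -0.34), where 13.9% of all rows were called lower, and 0 higher and 3 lower after heat in the wild type (median -0.125), where 16.9% were. At an unadjusted p below 0.05, 16 passed in the mutant and 5 in the wild type. The interaction was called in 3 of the 22, where 31.9% of all rows were called. In mock 3 of the 22 were called higher in the mutant than in the wild type (median 0.16), where 13% of all rows were. After heat 1 of the 22 was called lower in the mutant than in the wild type (median -0.08), where 17.6% of all rows were. RPOTM, a mitochondrial RNA polymerase gene, had 3.59 and 3.74 FPKM in pif4 pif5 heat and 5.86 and 5.84 in pif4 pif5 mock. In the wild type it had 4.09 and 3.33 FPKM in heat and 3.27 and 3.98 in mock. It fell after heat in the mutant by 0.55 on the log2 scale (limma adjusted p = 0.00747). In mock it was higher in the mutant than in the wild type by 0.57 ± 0.12 (limma adjusted p = 0.00508). Its interaction was -0.58 ± 0.17 (limma adjusted p = 0.0197). That of RPOTMP, of the same list, was -0.68 ± 0.18 (limma adjusted p = 0.0128). Genes of mitochondrial genome maintenance were called lower in 4 of 8 in the mutant and in 0 of 8 by limma in the wild type, where 2 had an unadjusted p below 0.05. Those of the mutant include TWINKLE, a gene of a DNA helicase and primase (-0.44 ± 0.09, limma adjusted p = 0.00566). The interaction was called in 1 of these 8 genes. Between genotypes, 1 of the 8 was called higher in the mutant in mock and 0 were called after heat.

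Markers of leaf cell types were set beside these results. The 4 mesophyll markers summed to 43590 to 44130 FPKM in pif4 pif5 heat, 35810 to 36740 in pif4 pif5 mock, 35790 to 37520 in wild-type heat and 37490 to 39200 in wild-type mock. The 3 epidermis markers summed to 70.0 to 73.9 FPKM in pif4 pif5 heat, 88.9 to 94.4 in pif4 pif5 mock, 75.9 to 78.3 in wild-type heat and 102.7 to 110.5 in wild-type mock. The 4 guard cell markers summed to 34.5 to 39.4 FPKM over all groups, and the 3 vascular markers to 487.0 to 506.4 in pif4 pif5 heat, 485.0 to 493.9 in pif4 pif5 mock, 411.6 to 418.5 in wild-type heat and 381.8 to 383.2 in wild-type mock. These sums mix markers that moved in opposite directions. After heat in the wild type, SWEET11 of the vascular list changed by 0.36 and SUC2 by -0.20 on the log2 scale. In the mesophyll list RCA changed by 0.48 and LHCB2.1 by -0.60. All 14 markers were above 0 in all 8 libraries, and their part in the mitochondrial differences was not tested.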

How the data were processed

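RNA of rosette leaves was sequenced in 8 libraries, 2 for each of 4 groups, read from the sample titles. Total RNA was extracted with Trizol, treated with DNase I and made into strand-specific libraries, per the labels' protocols. The authors deposited FPKM for 34354 rows. TopHat, TopHat2, edgeR and TAIR10 are listed without versions or roles, per the submitters' processing notes. The counting program, its use of strand and of reads that fit several places, and the selection of RNA were not given in the sources used here.

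FPKM steps were turned into read numbers, whole within 0.1 in 100.0% of the 23543 rows above 0, which gave depth and row lengths. Libraries of 1 group were not repeats of each other (chi-square per row 2.08 to 5.06, where sampling noise alone gives about 1). As FPKM do not keep the counting error, limma 3.58.1 in R 4.3.3 was run on log2(FPKM + 1), with group means over all 8 libraries, eBayes with trend, rows at 1 FPKM or more in at least 2 libraries, two-sided tests and Benjamini-Hochberg adjustment over 16831 rows in each of 5 comparisons. The code was tested on simulated data. Organelle sums carry 95% Wilson intervals, which cover counting error only.

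The members, gene lists and tests were chosen with earlier results of these data known. Changes are given for cox1, cob, atp1, nad7, ATMG00520 and ATMG00020 where tested, for up to 3 called rows per mitochondrial list with the smallest p (1 where none was called), for up to 5 called rows outside the lists, and for up to 3 called genes per nuclear list. ATMG00520 averaged 0.214 FPKM and was not tested. Names, sequences and nuclear copies come from RefSeq and the TAIR10.1 genome; the mitochondrial sequence used by the authors was not checked. The settings tried instead were a smaller pseudocount, looser and stricter filters, 4 scalings, a block for the replicate number, fits to the compared groups alone, eBayes with no trend, limma-voom on the recovered reads, and each library left out in turn. Counts over members with at least 20 reads on average, or of at least 200 bp, were added after seeing the data. Figures were drawn with matplotlib 3.10.9.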

Additional observations from a re-analysis of the deposited data

Results flagged for a closer look

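For 14 rows the change after heat differed between the genotypes by the test of the interaction itself (limma, adjusted p below 0.05); values are the mutant's log2 change minus that of the wild type. It was below 0 in 11 rows, with -0.98 for rrn18, -1.22 for ATMG00030, -1.52 for the nad1 row ATMG00516, -0.70 for ATMG00020, -1.0 for atp4, -1.06 for nad4L, -0.80 for ATMG00690, -0.59 for nad9, -1.18 for cox2, -0.61 for rps3 and -0.61 for cox1. It was above 0 in ATMG01370 (0.81), ATMG09960 (1.78) and ATMG01130 (1.07). ATMG09960 held at most 3 reads in a library, the nad1 row ATMG00516 at most 12 and ATMG01130 at most 17. The libraries of wild-type heat differed for cox2, with 35 and 71 reads.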

How the results depend on the processing

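Among the 32 members tested, 4 were called after heat in the mutant, against 1 when rows needed 1 FPKM in all 8 libraries, 7 when only the compared groups were fitted, 2 with no trend, 2 with limma-voom, and, added after seeing the data, 1 among members with a mean of at least 20 reads and 2 among those of at least 200 bp. The 3 calls between genotypes in mock were 1 with a pseudocount of 0.1, with no filter, with only the compared groups, with no trend or with limma-voom. The 17 calls between genotypes after heat were 10 with limma-voom. Leaving out each library in turn gave 1 to 6 calls after heat in the mutant, 10 to 18 in the wild type, 0 to 4 between genotypes in mock, 9 to 17 after heat and 11 to 16 for the interaction. The median change ranged from 0.258 to 0.422 after heat in the wild type and from -0.323 to -0.166 between genotypes after heat. Of 64 named results 49 were called, 13 of these under every setting run, and none of the 49 reversed. Reversals came among results that were not called. With scaling to the sum of the listed mitochondrial rows, cox1 after heat in the wild type was -0.119, ccmB between genotypes after heat 0.224 and its interaction 0.181. ATMG00020 between genotypes in mock was -0.024 with median-of-ratios scaling, -0.029 with quantile scaling, -0.035 with mitochondrial scaling, and -0.07 to 0.137 with each library left out; ccmB there was -0.006 to 0.207. Mitochondrial scaling ended 21 of the 49 calls, no filter 13, limma-voom 13 and quantile scaling 10. Why they differ was not tested. The mitochondrial sum holds rows tested here, such as nad4L and cox1, so a change that they share is divided out in part. Replicate numbers did not pair the libraries (correlations of deviations -0.028 to 0.186), and a replicate block gave 5 calls after heat in the mutant, 18 in the wild type, 3 and 17 between genotypes in mock and after heat, and 14 for the interaction. With 2 libraries per group and few reads per row, small changes of low rows were not detectable.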
